A study of Rattus norvegicus with 4 samples.

Results

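The adrenergic receptors and the cAMP signalling enzymes were represented by 17 of the 8799 probe sets on the array, which stood for 9 genes. These were all probe sets whose platform gene symbol was Adra1a, Adra1b, Adra1d, Adrb1, Prkaca, Pde4a, Pde4b, Pde4c or Pde4d, whatever their level. Total RNA of left ventricles from rats had been run on 4 Affymetrix arrays of the type RG_U34A, with 1 array per group. The groups were terminal heart failure, losartan-treated dTGR, dTGR and Sprague Dawley control (SD control). The dTGR are double transgenic rats that overexpress human renin and human angiotensinogen, and losartan blocks the angiotensin II type 1 receptor. The label of the terminal array names neither genotype nor treatment. The same description stands with all 4 samples, and says that the transgenic rats become hypertensive, with heart hypertrophy, proteinuria and death after 7 weeks. Age, dose, the promoters of the transgenes, the number of animals behind an array and whether RNA was pooled were not stated in the labels or files.

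Noradrenaline and adrenaline reach the heart muscle cell through beta and alpha1 adrenergic receptors. The beta receptors act through the stimulatory G protein on adenylyl cyclase, and the cAMP that is made activates protein kinase A, which phosphorylates calcium channels, phospholamban and troponin I and so raises the force and rate of contraction. Phosphodiesterases of the PDE4 family break cAMP down near these targets, whereas alpha1 receptors act through Gq and phospholipase C. In failing hearts a loss of beta1 receptors and of cAMP responses is a classical observation.

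With 1 array per group there is no error between replicates, no test and no p-value, and the number of arrays limits the precision of each value. Intensities below were scaled to a common trimmed mean, and values under the 40th percentile of all values, 26.0, were set to that floor before a difference was taken. A difference of at least 2-fold was counted, and where 1 of both values was under the floor the fold is written as at least that size. Probe sets of the same gene show how far probe sets disagree on a difference between the same arrays. This spread does not hold the error between animals, RNA preparations or arrays, which was not measured. Over genes with at least 2 probe sets above the floor, the SD of their log2 differences within a gene was 0.51 to 0.60 in the 6 comparisons. Of the 17 member probe sets, 13 had a mean over the 4 arrays at or above the floor, 9 were above it on all 4 arrays and 3 lay under it on all 4. The instrument records set the arrays apart. The terminal and losartan arrays shared a chip lot and the dTGR and SD control arrays shared another, the terminal array had a run day of its own, and only the dTGR array had a fluidics protocol with 0 seconds of first stain, against 600 seconds on the other arrays. The ratio of 3' to 5' signal of Gapdh was 1.28, 2.17, 1.73 and 1.35 on the terminal, losartan, dTGR and SD control arrays. All 7 cardiomyocyte markers on the array lay above the floor in every group.

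**Figure D1:**
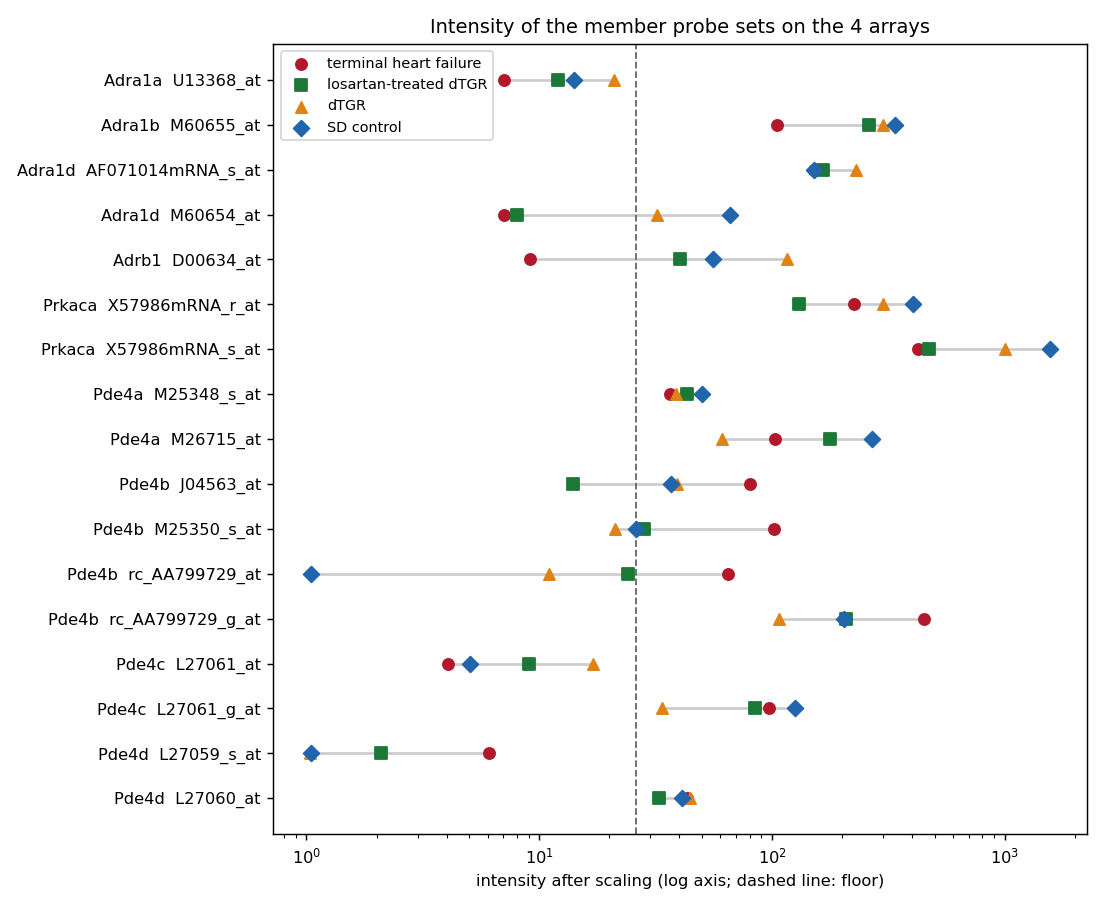
Scaled intensity (log axis) of each of the 17 member probe sets on the terminal heart failure, losartan-treated dTGR, dTGR and SD control arrays, 1 point per array, with the floor of 26.0 as a dashed line. Pde4b points of terminal heart failure lie to the right of the other arrays on all 4 of its probe sets, while those of Adra1b and Adrb1 lie to the left.

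Among the receptors, Adra1b and Adrb1 were lowest in terminal heart failure. Adra1b encodes the alpha1B receptor, a Gq-coupled receptor of the cardiomyocyte. Its probe set M60655_at had an intensity of 105 in terminal heart failure, 261 in losartan-treated dTGR, 299 in dTGR and 336 in SD control. The terminal array stood apart from the other 3, which lay within 1.29-fold of each other. Adra1b was 3.19-fold lower in terminal heart failure than in SD control (log2 difference -1.68), 2.84-fold lower than in dTGR and 2.48-fold lower than in losartan-treated dTGR. The last of these pairs shared a chip lot, but every comparison with the terminal array was between run days, so run day and group cannot be told apart. Adra1b was at least 2-fold lower than on each other array, as were 1.90% of all probe sets.

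Adrb1 encodes the beta1 receptor, the main beta receptor of the heart and the target of beta blockers. Probe set D00634_at had 9.08, under the floor, in terminal heart failure, 40.3 in losartan-treated dTGR, 116 in dTGR and 55.9 in SD control. The terminal array was the only one without a measurable level, and the dTGR array had the highest. Adrb1 was at least 2.15-fold lower in terminal heart failure than in SD control and at least 4.47-fold lower than in dTGR. In dTGR it exceeded SD control by 2.08-fold, and in losartan-treated dTGR it was 2.89-fold lower than in dTGR. The dTGR value was at least 2-fold above that of every other array, as were 2.69% of all probe sets. The dTGR array was the one with its own fluidics protocol, whose part was not tested. The higher value in dTGR than in SD control fell under 2-fold in 4 of 10 alternative settings, with log2 differences from 0.76 to 1.06. With a floor at the 60th percentile (66.2), no difference was left between terminal heart failure and SD control, and the log2 difference from dTGR was -0.81 both in terminal heart failure and in losartan-treated dTGR.

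The other alpha1 receptors gave less signal. Adra1a, the alpha1A receptor, lay under the floor on all 4 arrays with probe set U13368_at, the highest value being 21.0 in dTGR. Adra1d, the alpha1D receptor, known mainly from vascular smooth muscle, had 2 probe sets that did not go together. On AF071014mRNA_s_at the intensities were 152 in terminal heart failure, 166 in losartan-treated dTGR, 230 in dTGR and 152 in SD control, and no pair differed 2-fold. On M60654_at they were 7.05 and 8.04, both under the floor, in terminal heart failure and losartan-treated dTGR, 32.2 in dTGR and 66.0 in SD control. By M60654_at, Adra1d was at least 2.54-fold lower in terminal heart failure and in losartan-treated dTGR than in SD control, and 2.05-fold lower in dTGR. The arrays under the floor on M60654_at were those of the same chip lot, so lot and group cannot be told apart for them. SD control was at least 2-fold above every other array, as for 0.656% of all probe sets, but a floor at the 60th percentile (66.2) lies above all 4 values. The mean of M60654_at over the 4 arrays reached the floor only through its SD control value, so its place in this count rests on that value. The direction of Adra1d in dTGR was therefore not settled, with log2 differences of 0.60 and -1.04 from SD control on the 2 probe sets. Markers of smooth muscle had a summed intensity of 1425, 1120, 1098 and 1596 on the terminal, losartan, dTGR and SD control arrays, with 0 of 4 at least 2-fold apart between terminal heart failure and SD control. In this bulk tissue, fewer cells of a type and less RNA per cell cannot be told apart.

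Prkaca, the catalytic alpha subunit of protein kinase A and so the effector of cAMP in the cardiomyocyte, was lower in terminal heart failure and in losartan-treated dTGR than in SD control. Probe set X57986mRNA_s_at had 422 in terminal heart failure, 474 in losartan-treated dTGR, 1005 in dTGR and 1570 in SD control. These values fall into a lower pair and a higher pair. Prkaca was 3.72-fold lower in terminal heart failure and 3.31-fold lower in losartan-treated dTGR than in SD control, and 2.38-fold and 2.12-fold lower than in dTGR. In dTGR it was 1.56-fold lower than in SD control, short of 2-fold. The second probe set, X57986mRNA_r_at, which was drawn from the same transcript record, had 225 in terminal heart failure, 130 in losartan-treated dTGR, 300 in dTGR and 404 in SD control. Its values were also lower in terminal heart failure and losartan-treated dTGR than on the other arrays, but did not fall into such pairs. The terminal value was 1.33-fold lower than that of dTGR and 1.73-fold higher than that of losartan-treated dTGR. Against SD control it was 1.80-fold lower in terminal heart failure and 3.10-fold lower in losartan-treated dTGR.

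The pair of arrays with low Prkaca is the pair that shared a chip lot, so lot and group cannot be told apart for it. On X57986mRNA_s_at both arrays of that lot were at least 2-fold under both arrays of the other lot, which held for 27 of 4418 probe sets (0.611%). Between terminal heart failure and losartan-treated dTGR, within that lot, the 2 probe sets had log2 differences of -0.17 and 0.79. Between dTGR and SD control, within the other lot, both were lower in dTGR, with log2 differences of -0.64 and -0.43. The summed intensity of the 7 cardiomyocyte markers was 71101, 102572, 155557 and 75832 on the terminal, losartan, dTGR and SD control arrays, and their part in the Prkaca values was not tested. After scaling to the same median, the differences of X57986mRNA_s_at from dTGR were under 2-fold (log2 -0.96 in terminal heart failure and -0.85 in losartan-treated dTGR).

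The PDE4 phosphodiesterases, which hydrolyse cAMP and are the targets of rolipram, went different ways by family member. Pde4b was higher in terminal heart failure, the more intense probe sets of Pde4a and Pde4c were lowest in dTGR, and no Pde4d value was 2-fold from another. Pde4b encodes the family member best known from leukocytes and inflammation, which also limits beta-adrenergic calcium current in the mouse heart. The most intense of its probe sets, rc_AA799729_g_at, had 450 in terminal heart failure, 208 in losartan-treated dTGR, 107 in dTGR and 204 in SD control. The losartan and SD control arrays were alike, the terminal array was above and the dTGR array below them. On M25350_s_at the values were 102 in terminal heart failure, 28.1 in losartan-treated dTGR, 21.1, under the floor, in dTGR and 26.1 in SD control. On J04563_at they were 80.6 in terminal heart failure, 14.0, under the floor, in losartan-treated dTGR, 39.1 in dTGR and 36.9 in SD control. The last probe set, rc_AA799729_at, had 64.9 in terminal heart failure and lay under the floor on the other 3 arrays, and its mean was under the floor.

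Terminal heart failure thus had the highest Pde4b value on all 4 probe sets. Against SD control Pde4b was 2.20-fold higher on rc_AA799729_g_at, 3.92-fold higher on M25350_s_at, 2.18-fold higher on J04563_at and at least 2.50-fold higher on rc_AA799729_at. Against losartan-treated dTGR, which shared the chip lot but not the run day, the first 3 of these were 2.17-fold, 3.64-fold and at least 3.10-fold higher. As for Adra1b, run day and group cannot be told apart in these comparisons. Each of the 3 probe sets was at least 2-fold above every other array, as were 3.46% of all probe sets. The mean of M25350_s_at over the arrays reached the floor only through its terminal value, so its place in this count rests on that value. The probe sets rc_AA799729_at and rc_AA799729_g_at come from the same expressed sequence tag and are not independent of each other. In dTGR, rc_AA799729_g_at was 1.91-fold lower than in SD control, J04563_at was 1.06-fold higher, and M25350_s_at was under the floor, against 26.1, just above it, in SD control. Raising the floor to the 60th percentile left J04563_at and M25350_s_at with differences of 0.28 and 0.63 on the log2 scale between terminal heart failure and SD control, while rc_AA799729_g_at was past 2-fold in all 10 settings (1.03 to 1.29).

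Macrophage markers were also highest on the terminal array. Their summed intensity was 3483, 1248, 1836 and 1142 on the terminal, losartan, dTGR and SD control arrays, with 2 of 3 at least 2-fold above SD control in terminal heart failure, and none of the 3 under the floor on any array. The lymphocyte and leukocyte list had summed intensities of 106, 110, 135 and 182, with 0 of 4 at least 2-fold apart between terminal heart failure and SD control. Cd3d (5.05) and Cd8a (10) were under the floor in terminal heart failure, against 31 and 36 in SD control. For them the floor left no room for a 2-fold difference. Ptprc, the common leukocyte antigen, had 50.9, 38.2, 67.4 and 46.0 in the same order of arrays. The part of leukocytes in the Pde4b values was not tested.

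Pde4a, a broadly expressed PDE4, had 103 in terminal heart failure, 178 in losartan-treated dTGR, 61.0 in dTGR and 268 in SD control on probe set M26715_at. All 3 disease arrays were under SD control, dTGR the furthest. It was 4.40-fold lower in dTGR and 2.61-fold lower in terminal heart failure than in SD control, and in losartan-treated dTGR it was 2.92-fold higher than in dTGR and 1.50-fold lower than in SD control. Its differences of 2-fold or more were past 2-fold in all 10 alternative settings. The second probe set, M25348_s_at, had 36.6 in terminal heart failure, 43.0 in losartan-treated dTGR, 38.5 in dTGR and 49.9 in SD control. It had the same sign against SD control on all 3 arrays but no difference over 1.36-fold, at values close to the floor.

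Pde4c had a like pattern on probe set L27061_g_at, with 96.9 in terminal heart failure, 84.3 in losartan-treated dTGR, 33.8 in dTGR and 126 in SD control. Only the dTGR array was low. Pde4c was 3.74-fold lower in dTGR than in SD control, and it was 2.87-fold higher in terminal heart failure and 2.49-fold higher in losartan-treated dTGR than in dTGR. A floor at the 60th percentile (66.2) brought these under 2-fold, to log2 differences of -0.93, 0.55 and 0.35, and a pseudocount of 32 brought both differences from dTGR, though not that between dTGR and SD control, under 2-fold. The other Pde4c probe set, L27061_at, lay under the floor on all 4 arrays. Both low values, of Pde4a and Pde4c, were on the array with the separate fluidics protocol, whose part was not tested. Pde4c was at least 2-fold lower in dTGR than on each other array, as were 1.54% of all probe sets. Pde4d, which is tied to the beta receptor and the ryanodine receptor complex in the mouse heart, had 43.1 in terminal heart failure, 32.7 in losartan-treated dTGR, 44.4 in dTGR and 41.0 in SD control on L27060_at. No pair differed by more than 1.36-fold, and the second Pde4d probe set, L27059_s_at, lay under the floor on all 4 arrays.

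**Figure D2:**
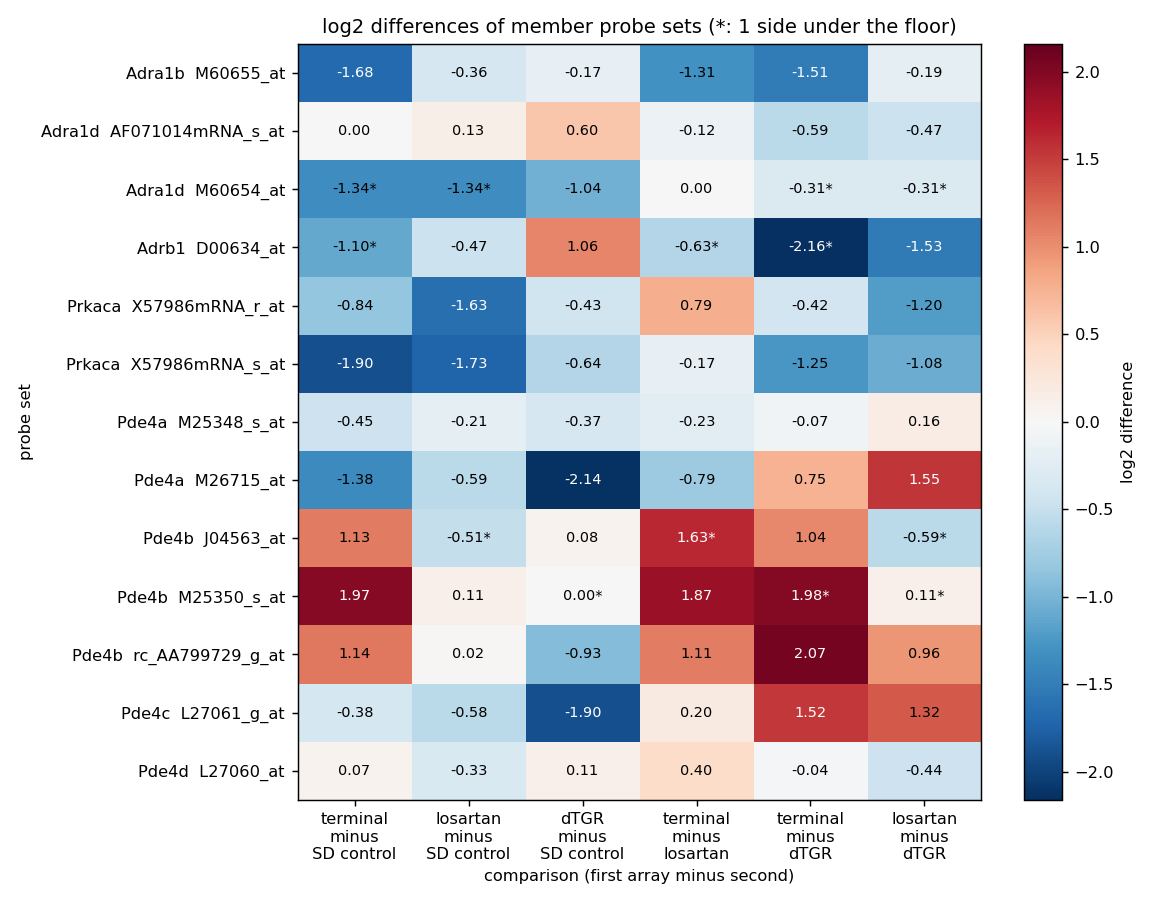
log2 differences of the 13 member probe sets with a mean at or above the floor (rows) in 6 comparisons (columns, first array minus second), red for higher and blue for lower, with an asterisk where 1 side lay under the floor. The Pde4b rows are red in the 3 columns that start with terminal heart failure and Adra1b is blue in them, while Pde4a M26715_at and Pde4c are darkest blue in dTGR minus SD control.

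Counted over the 13 probe sets, terminal heart failure against SD control had 3 higher, all of Pde4b (7.58% of all 4418 probe sets were higher), and 5 lower, of Adra1b, Adra1d, Adrb1, Prkaca and Pde4a (9.05% of all were lower). Of these, the mean of M25350_s_at (Pde4b) reached the floor only through the terminal array, and that of M60654_at (Adra1d) only through SD control. This holds for the counts below as well. The members' median log2 difference was -0.45, and that of all probe sets was -0.12. Against dTGR, terminal heart failure had 4 higher, 3 of Pde4b and 1 of Pde4c (9.21% of all), and 3 lower, of Adra1b, Adrb1 and Prkaca (11.7% of all), against 6 higher and 2 lower after scaling to the same median. Against losartan-treated dTGR it had 3 higher, again of Pde4b (9.33% of all), and 1 lower, of Adra1b (7.11% of all). These comparisons share the terminal array and are not independent of each other.

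In dTGR against SD control, the pair that shared a chip lot, 1 member probe set was higher, of Adrb1 (7.85% of all), and 3 were lower, of Adra1d, Pde4a and Pde4c (6.93% of all), with a median of -0.37 and of 0.00 over all probe sets. This split was 0 and 4 after scaling to the same median, and 0 and 3 after cyclic loess. Losartan-treated dTGR against dTGR had 2 higher, of Pde4a and Pde4c (6.47% of all), and 3 lower, of Adrb1 and both of Prkaca (10.8% of all), against 3 higher and 1 lower after scaling to the same median. Against SD control it had 0 higher (2.74% of all) and 3 lower, of Adra1d and both of Prkaca (6.47% of all). For Adrb1, Pde4a on M26715_at and Pde4c, the values in losartan-treated dTGR were 1.39-fold to 1.50-fold lower than in SD control. Those in dTGR were over 2-fold away. Adra1d on M60654_at went the other way, 2.05-fold lower than SD control in dTGR and at least 2.54-fold lower in losartan-treated dTGR, which was of another chip lot. The second Pde4a probe set, M25348_s_at, was under 2-fold from SD control on both arrays. For Prkaca it was the losartan array that was far from SD control.

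The rest of the adrenergic and cAMP pathway was described with a list of 74 symbols, of which 59 had a probe set and 45 were represented by one with a mean at or above the floor. In terminal heart failure 4 of these 45 genes were at least 2-fold higher than in SD control (6.47% of all genes) and 6 were lower (8.73% of all genes), with a median of -0.21 against -0.14 over all genes. After cyclic loess 6 were higher and 4 lower. The higher genes were Crem, Grk5, Maoa and Grk4. Crem encodes transcription factors that bind cAMP response elements and was 3.68-fold higher (503 in terminal heart failure and 137 in SD control). Grk5, a kinase that desensitises activated receptors, was 2.25-fold higher (84.5 and 37.5 in the same order), and Maoa, which degrades noradrenaline, was 2.24-fold higher (1095 and 489). Grk4, of the same kinase family as Grk5, was 2.23-fold higher, at 109 in terminal heart failure and 48.6 in SD control. Crem and Maoa were past 2-fold in all 10 settings. Grk5 and Grk4 fell under 2-fold with a floor at the 60th percentile or a pseudocount, to log2 differences as small as 0.35 and 0.71.

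Among the lower genes, Adcy3, an adenylyl cyclase, had 40.7 in terminal heart failure, 101 in losartan-treated dTGR, 124 in dTGR and 140 in SD control, 3.44-fold lower in terminal heart failure than in SD control. The beta3 receptor Adrb3 was 2.46-fold lower (31.0 in terminal heart failure and 76.2 in SD control). Akap1, which anchors protein kinase A at mitochondria, was 2.45-fold lower, and Slc22a3, a transporter that clears catecholamines outside neurons, was 2.44-fold lower. Adcy3 and Akap1 were past 2-fold in all 10 settings. Adrb3 and Slc22a3 fell under 2-fold with the higher floor or a pseudocount, to log2 differences as small as -0.20 and -0.58. Akap1 had 170, 166, 360 and 415 on the terminal, losartan, dTGR and SD control arrays, the same lower and higher pairs by chip lot as Prkaca. A second Akap1 probe set above the floor had 106, 66.1, 107 and 183 in the same order, without these pairs. It was 1.72-fold lower in terminal heart failure than in SD control. Several other steps of the pathway were short of 2-fold. The adenylyl cyclases of the heart, Adcy5 and Adcy6, were 1.19-fold higher and 1.01-fold lower in terminal heart failure than in SD control, Gnas, the stimulatory G protein, was 1.16-fold lower, and Gnai2, an inhibitory G protein, was 1.65-fold lower on its more intense probe set and 1.21-fold higher on M12672_at. Phospholamban (Pln), the protein kinase A target at the calcium pump, was 1.37-fold lower, Pde3a, the other main cAMP phosphodiesterase of the heart, was 1.67-fold lower, and Creb1, a factor that protein kinase A activates, was 1.53-fold lower.

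Against dTGR, terminal heart failure had 3 pathway genes higher (8.39% of all genes) and 7 lower (12.0% of all genes). This split depended on the scaling, with 5 higher and 1 lower after scaling to the same median, and 5 higher and 3 lower after quantile normalization or cyclic loess. Crem was 2.57-fold higher, and Adcy3, Ppp1r1a, Tnni3 and Pde3a were 3.06-fold, 2.32-fold, 2.26-fold and 2.16-fold lower. Ppp1r1a is a protein phosphatase inhibitor that protein kinase A switches on, and Tnni3 is cardiac troponin I. Crem was past 2-fold in all 10 settings and Adcy3 in 9. After scaling to the same median Ppp1r1a, Tnni3 and Pde3a were under 2-fold (log2 -0.92, -0.88 and -0.82), and Tnni3 was at -0.08 after quantile normalization. Against losartan-treated dTGR, 3 were higher (7.65% of all genes) and 3 lower (7.59% of all genes), or 6 and 3 after cyclic loess and 5 and 3 after scaling to the same median, with Crem 5.60-fold and Gna12, a G protein alpha subunit, 2.09-fold higher, and Adcy3, Prkacb and Cacna1c 2.48-fold, 2.11-fold and 2.10-fold lower. Prkacb is the other widely expressed catalytic subunit of protein kinase A, and Cacna1c is the pore of the L-type calcium channel.

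In dTGR, 1 pathway gene was higher than in SD control (7.46% of all genes), Maoa at 2.68-fold, and 2 were lower (6.53% of all genes), Rapgef3, a cAMP sensor that acts beside protein kinase A, and Slc22a3, both under the floor in dTGR. After scaling to the same median 1 was higher and 4 were lower. Losartan-treated dTGR had 5 higher (6.50% of all genes) and 9 lower (9.63% of all genes) than dTGR, which became 6 higher and 3 lower after scaling to the same median. Prkacb and Pkia, an inhibitor peptide of protein kinase A, were 2.19-fold and 2.02-fold higher, and Pde3a, Arrb2, Gng7 and Grk2 were 3.49-fold, 3-fold, 2.37-fold and 2.20-fold lower. Grk2 was under 2-fold after that scaling (log2 -0.90). Arrb2 is a beta-arrestin, Gng7 a G protein gamma subunit and Grk2 the main receptor kinase of the heart, and a second Grk2 probe set went the other way by 2-fold. Against SD control it had 1 higher (2.20% of all genes), Grk4 at 2.28-fold, and 6 lower (5.08% of all genes), among them Pde3a (2.71-fold), the potassium channel gene Kcnq1 (2.60-fold), Akap1 (2.50-fold) and Gna12 (2.23-fold). The losartan array differed from dTGR in chip lot and fluidics protocol, and from SD control in chip lot. These cannot be told apart from group. Pde3a had 52.0, 32.1, 112 and 87.0 on the terminal, losartan, dTGR and SD control arrays. On the probe sets that stood for them, Arrb2, Gng7, Grk2, Kcnq1 and Akap1 were likewise lower on both arrays of the losartan lot than on both others. Grk4 was higher on both.

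**Figure D3:**
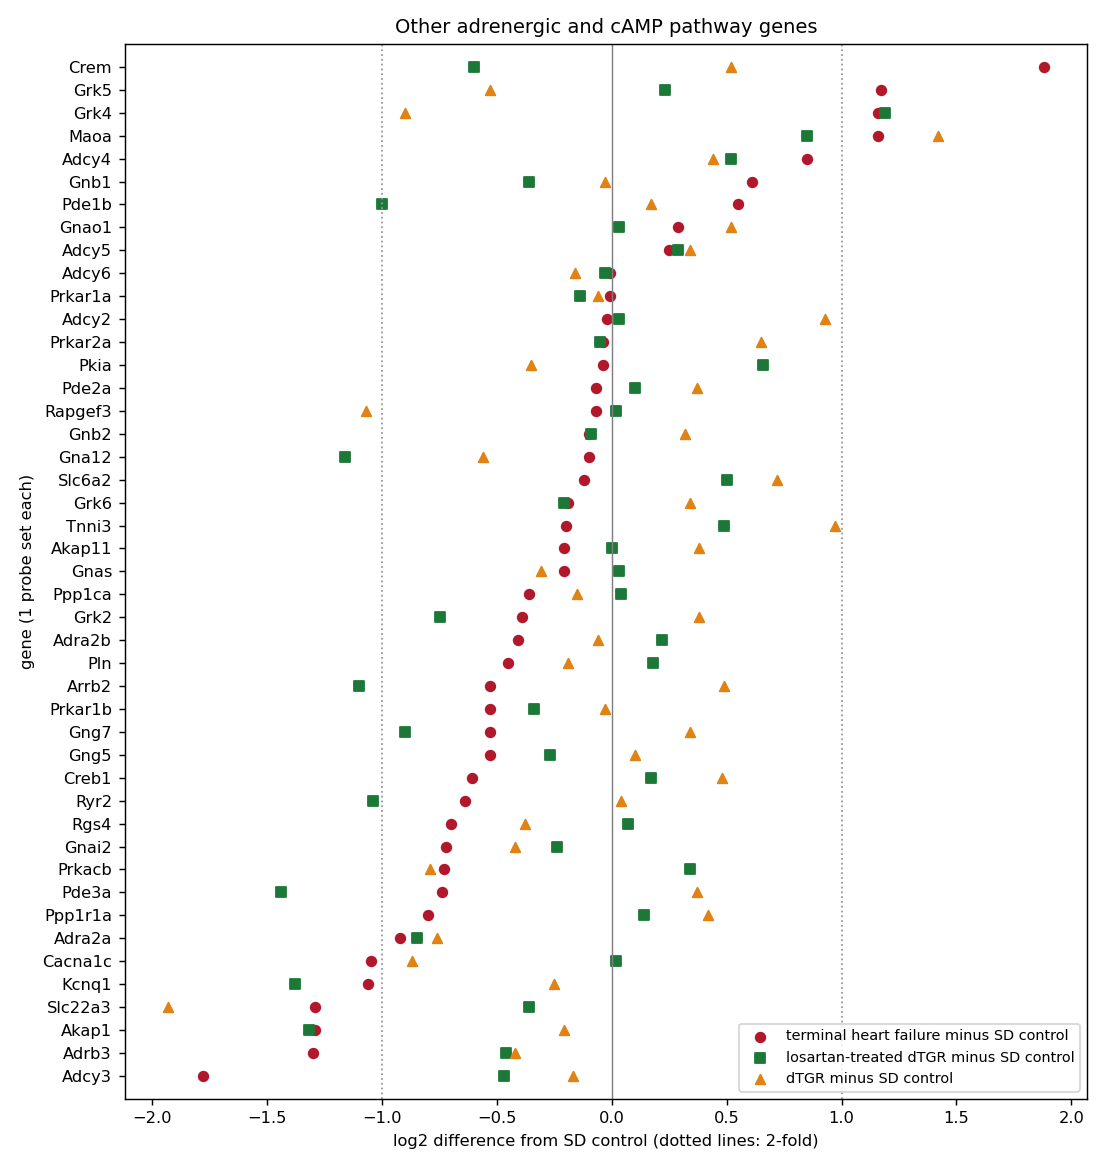
log2 difference from SD control of 45 other genes of the adrenergic and cAMP pathway, 1 probe set each, for terminal heart failure (circles), losartan-treated dTGR (squares) and dTGR (triangles), with 2-fold as dotted lines, ordered by terminal heart failure. Crem is at the top (1.88) and Adcy3 at the bottom (-1.78), and most genes lie between the dotted lines.

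Crem was the only one of the 45 pathway genes whose value on the terminal array was at least 2-fold above each of the other 3 arrays, and among the members this held only for Pde4b. Its probe set S66024_g_at had 503 in terminal heart failure, 89.8 in losartan-treated dTGR, 195 in dTGR and 137 in SD control, and U04835_at had 171, 35.7, 59.5 and 77.2 in the same order of arrays. S66024_at had 118 in terminal heart failure and lay under the floor on the other 3 arrays, and Z15158mRNA_at lay under it on all 4. For Crem, too, run day and group cannot be told apart. An internal promoter of Crem is known to make a short repressor, ICER, when cAMP rises, through cAMP response elements. Which Crem transcripts these probe sets read was not determined here. Akap12, an anchor protein of protein kinase A, had a mean under the floor and so was outside the 45, and was chosen after its values were seen. Its probe set U23146cds_s_at had 87.1 in terminal heart failure and lay under the floor on the other 3 arrays, at least 3.35-fold higher than in SD control. On U41453_at it had 69.5 in terminal heart failure, at least 2.67-fold higher, again with the other 3 arrays under the floor.

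**Figure D4:**
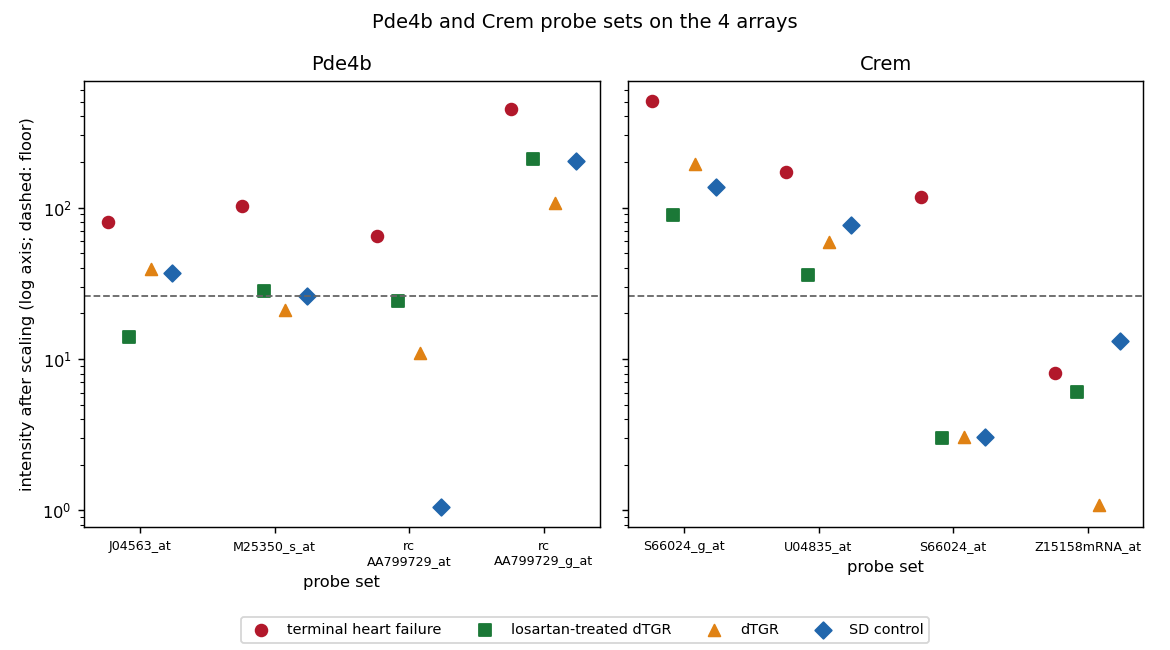
Scaled intensity (log axis) of the 4 Pde4b and the 4 Crem probe sets on the terminal heart failure, losartan-treated dTGR, dTGR and SD control arrays, 1 point per array, with the floor of 26.0 dashed. The terminal array is highest on all 4 Pde4b probe sets and on 3 of 4 Crem probe sets.

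Because Pde4b and Crem were both highest in terminal heart failure, and Pde4a was lower there than in SD control, the promoters of these genes were searched for the letters of the cAMP response element. RefSeq promoters of the GRCr8 build, 250 bases before to 50 after a start, matched 7 of the 9 member genes with 15 starts. The full element TGACGTCA, which reads the same on both strands, was in 0 of these 15 and in 2 of 3 Crem promoters, against 1.83% of all 33469 promoters. The core TGACG, on either strand and also contained in the full element, was in 6 of the 15 member promoters and in all 3 of Crem, against 21.2% of all promoters. It was in 1 promoter each of Adrb1 and Prkaca, in 2 of 4 of Pde4a and in 2 of 5 of Pde4d, and in none of 2 of Pde4b. As 21.2% of all promoters hold the core, its absence from 2 promoters does not set Pde4b apart. The following sequences are both Pde4b promoters, the Pde4a promoters with the core and the Crem promoters with the full element. Pde4a promoters without the core and the Crem promoter without the full element are not among them. Letters are in lower case, with each match to TGACG, on either strand, in capitals.
Pde4b at chr5:122028706-122029005, plus strand: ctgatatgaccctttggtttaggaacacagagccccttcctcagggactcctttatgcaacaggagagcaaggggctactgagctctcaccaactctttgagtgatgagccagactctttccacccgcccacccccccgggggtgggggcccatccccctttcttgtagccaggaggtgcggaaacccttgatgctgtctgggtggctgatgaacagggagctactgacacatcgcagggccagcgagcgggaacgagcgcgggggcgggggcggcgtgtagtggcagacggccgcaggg
Pde4b at chr5:122222323-122222622, plus strand: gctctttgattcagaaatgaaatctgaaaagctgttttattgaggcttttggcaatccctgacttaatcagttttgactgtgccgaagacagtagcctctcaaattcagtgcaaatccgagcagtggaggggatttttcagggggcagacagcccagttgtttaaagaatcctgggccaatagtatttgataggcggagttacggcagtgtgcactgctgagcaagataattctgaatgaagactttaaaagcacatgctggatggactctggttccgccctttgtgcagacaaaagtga
Pde4a at chr8:27966737-27967036, plus strand: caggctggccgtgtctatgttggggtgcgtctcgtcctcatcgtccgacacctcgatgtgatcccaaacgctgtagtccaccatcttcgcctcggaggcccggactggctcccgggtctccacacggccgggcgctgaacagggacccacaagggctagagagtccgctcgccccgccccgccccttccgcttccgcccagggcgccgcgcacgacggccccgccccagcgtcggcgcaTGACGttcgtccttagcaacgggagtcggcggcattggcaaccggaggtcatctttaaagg
Pde4a at chr8:27999163-27999462, plus strand: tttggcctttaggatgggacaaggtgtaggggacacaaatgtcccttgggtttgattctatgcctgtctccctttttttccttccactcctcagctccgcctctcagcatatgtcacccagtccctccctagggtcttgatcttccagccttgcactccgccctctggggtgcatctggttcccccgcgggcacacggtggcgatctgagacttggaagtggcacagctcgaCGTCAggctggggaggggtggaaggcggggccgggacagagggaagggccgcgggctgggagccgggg
Crem at chr17:58984547-58984846, plus strand: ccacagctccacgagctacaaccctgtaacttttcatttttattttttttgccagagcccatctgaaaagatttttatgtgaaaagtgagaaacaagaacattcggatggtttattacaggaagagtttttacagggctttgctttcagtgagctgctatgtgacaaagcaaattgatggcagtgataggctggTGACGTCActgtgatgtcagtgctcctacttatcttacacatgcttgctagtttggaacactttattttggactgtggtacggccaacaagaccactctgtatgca
Crem at chr17:58985240-58985539, plus strand: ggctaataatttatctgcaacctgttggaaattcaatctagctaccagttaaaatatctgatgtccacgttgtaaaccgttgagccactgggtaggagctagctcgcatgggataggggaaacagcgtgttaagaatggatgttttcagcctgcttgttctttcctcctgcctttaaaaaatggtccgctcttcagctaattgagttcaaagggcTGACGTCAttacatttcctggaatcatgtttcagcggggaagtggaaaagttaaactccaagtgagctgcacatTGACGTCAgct
Both Pde4b sequences lack capitals, the Pde4a ones hold a single core each, and the last Crem one holds the full element at 2 places, which begin at base -35 and base 40 counted from the start of transcription. A match is a description of letters and not a site of binding.

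The genes most like the members over the 4 arrays were found by the distance between mean-centred log2 profiles, among 2577 genes above the floor on all arrays (2578 for Adrb1). Closest to Adra1b were Adcy3 (distance 0.11), Ehd4 (0.12) and Il13 (0.20). Ehd4, an endocytic membrane protein, had 276 in terminal heart failure, 762 in losartan-treated dTGR, 797 in dTGR and 916 in SD control. Closest to Adrb1, with its terminal value at the floor, were Plcl1 (0.27), Gap43 (0.34) and Grm4 (0.48). Closest to Prkaca were Nbl1 (0.34), Ghrhr (0.40) and Mgll (0.43), and closest to Pde4b on rc_AA799729_g_at were Lta4h (0.14), Slc7a5 (0.28) and Srpx (0.29). Lta4h, an enzyme of leukotriene B4 synthesis, had 878 in terminal heart failure, 440 in losartan-treated dTGR, 239 in dTGR and 425 in SD control. With 4 arrays such likeness is a description of these arrays.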

How the data were processed

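Per the file headers, total RNA was run on Affymetrix arrays of chip type RG_U34A. The deposited table holds linear intensities, 1 for each probe set on each array, already on a common level (trimmed means of 200.2 to 200.3). The software that made them is not given in the sources used here. Of 15281 deposited intensities from 1 to under 32, 13625 had the form of a day and month, which moves a value by under 1 unit. Arrays were brought to a common trimmed mean (2% left out at each end), values under the 40th percentile (26.0) were set to it, and log2 was taken (Python 3.11.15). Probe sets with 1 gene symbol (7006; 59 controls, 1426 without and 308 with several symbols left out) and a mean over 4 arrays at or above the floor were counted: 4418 probe sets, 3229 genes. A gene was represented by its most intense probe set. Gene identifiers of all 9 members matched the rat gene table.

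The 6 comparisons were described with no test. The members and lists were chosen with earlier results of these data known. All member probe sets are named; of the pathway list, up to 4 genes per direction and comparison that were 2-fold apart and above the floor on both arrays, plus 10 fixed genes (1 is not reported here), and the 3 genes nearest to 1 probe set per member class. The comparison of chip lots, of each array with the other 3, the promoter search and 1 alternative were added after seeing the data. Counting was tested on simulated arrays with low noise and changes larger than 2-fold in bright probe sets. That does not cover 2-fold differences near the floor. Cyclic loess used limma 3.58.1.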

Additional observations from a re-analysis of the deposited data

How the results depend on the processing

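Of the 60 recomputed counts of member probe sets, 52 were within 1.5 times the reported count, and of 1020 recomputed log2 differences 0 that had been past 2-fold changed sign. Only some of the 1020 had been past 2-fold. A changed floor or a pseudocount cannot reverse which of both values is higher, so for those settings the absence of reversals was fixed in advance. The floor mattered most. With it at the 60th percentile, 4 member probe sets were 2-fold apart in terminal heart failure against SD control, 3 against dTGR and 2 against losartan-treated dTGR, 1 in dTGR against SD control, and 3 in losartan-treated dTGR against dTGR. With it at the 25th percentile, losartan-treated dTGR had 8 against dTGR and 5 against SD control. A pseudocount of 32 in place of the floor left 2 in dTGR against SD control. Pathway genes 2-fold apart moved more often, in 17 of 66 counts. In dTGR against SD control they numbered 5 after scaling to the same median, 6 with the lower and 1 with the higher floor. In terminal heart failure against SD control they numbered 6 with the higher floor and 4 with the pseudocount, and against dTGR 6 after scaling to the same median, 4 with the higher floor and 6 with the pseudocount. In losartan-treated dTGR against dTGR they numbered 9 after scaling to the same median, 6 with the higher floor, 5 with the pseudocount and 8 when a gene's probe sets were summarised by their median, and against SD control 3, 2 and 4 with the last 3 of these. In terminal heart failure against losartan-treated dTGR they numbered 2 with the pseudocount and 3 with the median of probe sets. A higher floor leaves fewer values to compare; otherwise the cause was not tested. Scaling moved the direction of calls. In terminal heart failure against dTGR, 3 pathway genes higher and 7 lower were reported, with 5 and 1 after scaling to the same median and 5 and 3 after quantile normalization or cyclic loess. In losartan-treated dTGR against dTGR, 5 and 9 were reported, with 6 and 3 after scaling to the same median, where the member probe sets had 3 higher and 1 lower in place of 2 and 3. In terminal heart failure against SD control, 4 and 6 were reported, with 6 and 4 after cyclic loess, and against losartan-treated dTGR 3 and 3, with 6 and 3. No paired analysis was possible because each group had 1 array, which also left no replicate to leave out. Values of Adra1a, Pde4d and the second probe set of Pde4c lay too near or under the floor to show a difference.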
